A study of Mus musculus with 30 samples.

Results

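AMPA and NMDA receptors are the main ionotropic glutamate receptors of the forebrain. AMPA receptors are assembled from the subunits GluA1 to GluA4, encoded by Gria1 to Gria4, and carry most of the fast excitatory current at cortical and striatal synapses. NMDA receptors combine the obligatory subunit GluN1, encoded by Grin1, with GluN2 subunits encoded by Grin2a to Grin2d, and admit calcium when glutamate binding coincides with depolarisation. Which GluN2 subunit is present sets how fast the NMDA receptor closes and which signalling proteins it holds, and which AMPA subunits are present sets calcium permeability and trafficking.

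The subunits described here were all probe sets whose annotated gene symbol was exactly Gria1, Gria2, Gria3, Gria4, Grin1, Grin2a, Grin2b, Grin2c or Grin2d. Of these 9 genes, 8 were represented by 11 of the 22626 probe sets that are not controls, and Grin1 was not analysed here. There were 6 AMPA and 5 NMDA receptor probe sets. A total of 7 probe sets of 5 genes averaged 4 or more on the log2 scale over all arrays and were tested, and 4 averaged less.

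Expression was measured in forebrain of 30 male C57BL mice on Affymetrix MOE430A arrays, with 1 mouse per array. A group of 10 mice received clozapine, an atypical antipsychotic with a broad receptor profile, at 12 mg/kg/day. Another 10 received haloperidol, a typical antipsychotic that blocks mainly dopamine D2 receptors, at 1.6 mg/kg/day, and 10 untreated control mice received no drug. Both drugs were given in drinking water for 12 weeks, and the study compared their long-term expression profiles in brain. The labels give an age of 4 weeks, which the design text places at the start of the experiments, and they name both the right and the left hemisphere. The note on the dose in the haloperidol protocol names clozapine, while the dose itself is also given in the other haloperidol labels. Values are in GCRMA log2 units, in which a difference of 1 is 2-fold. The tissue holds many cell types, so fewer cells of a type and less RNA per cell cannot be told apart.

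The tissue had the markers of forebrain. All 7 measured markers of glutamatergic cortical neurons and all 7 of striatal neurons had a mean of at least 4, while 6 of 10 markers of cerebellar granule and Purkinje cells lay below it, among them Gabra6, Cbln3 and Pcp2 at means of 2.61, 2.76 and 3.12. The other 4 were Zic1 at 9.31, Neurod1 at 7.28, Car8 at 6.25 and Cbln1 at 6.01. Clustering of the arrays by average linkage over all tested probe sets gave cluster A with 11 arrays (3 clozapine, 5 haloperidol and 3 control), cluster B with 8 (1, 3 and 4 in the same order), cluster C with 7 (5, 0 and 2) and 4 arrays that joined none of them. Haloperidol 2, haloperidol 7 and control 1 correlated least with the other arrays, and are the 3 arrays left out where results are given without outlying arrays. The 3′ minus 5′ difference of the Actb and Gapdh control probe sets, which widens when RNA is degraded, had a median of 0.88 in clozapine, 0.56 in haloperidol and 0.67 in control arrays. By cluster its median was 0.62 in A, 0.57 in B and 1.05 in C, and it reached 4.09 in control 1 and 2.45 in haloperidol 7.

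None of the tested AMPA or NMDA receptor subunits differed between any pair of groups after correction. In each of the 3 comparisons limma called 0 of the 7 probe sets at an adjusted p under 0.05, against 0% of all 12944 tested. At an unadjusted p under 0.05 the count was also 0 of 7 in each, against 4.35% of all probe sets for clozapine against control, 2.3% for haloperidol against control and 3.14% for clozapine against haloperidol. The groups overlapped for all 11 subunit probe sets in all 3 comparisons, and groups that did not overlap made up 0% of all 22626 probe sets in each.

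**Figure D1:**
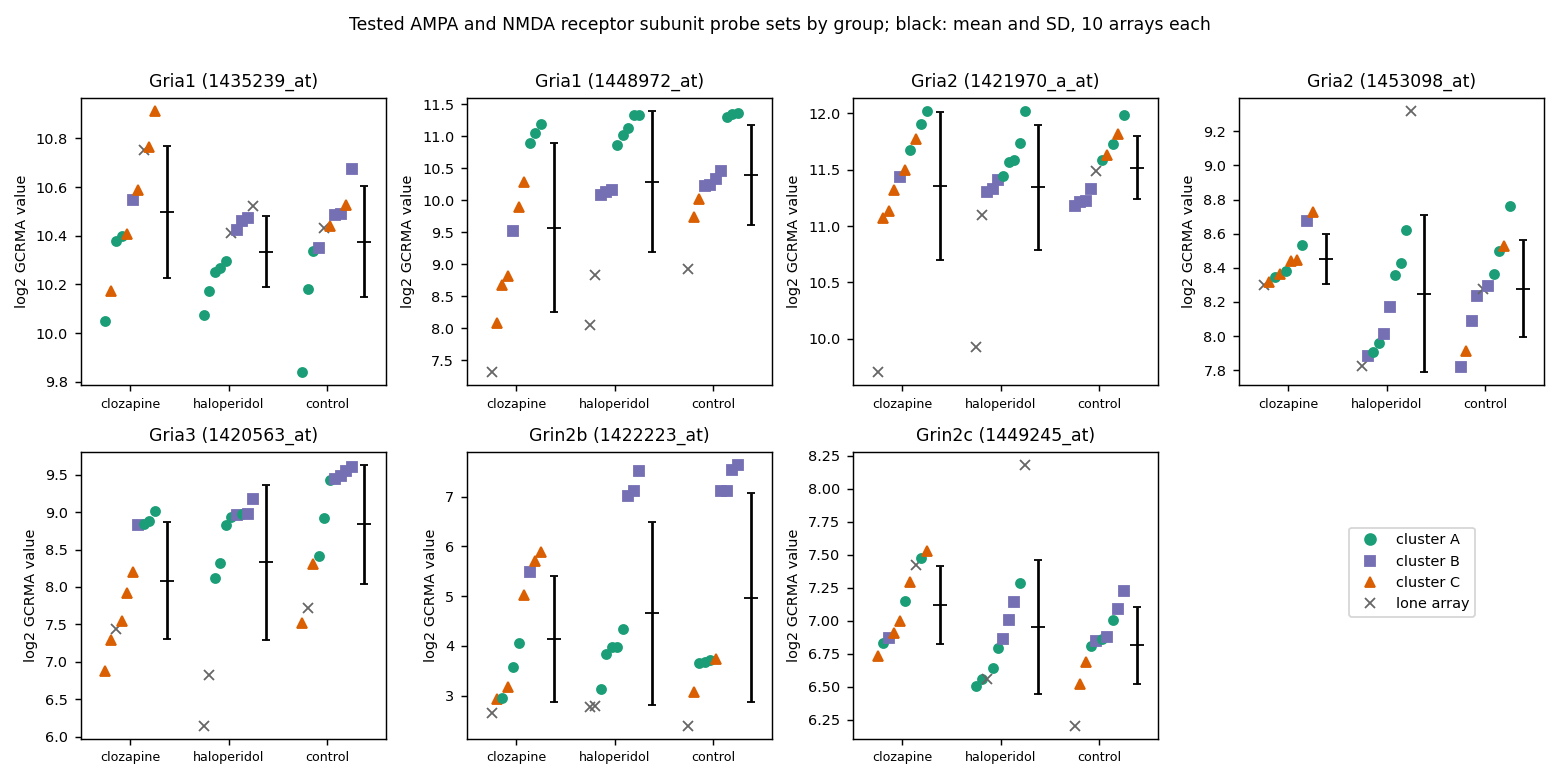
Deposited log2 GCRMA values of the 7 tested receptor subunit probe sets, 1 point per array, sorted within the clozapine, haloperidol and control groups (n = 10 each), with marker and colour giving the array cluster and black bars the mean and SD. The groups overlap in every panel. In haloperidol and control the Grin2b points split into a low set and a high set above 7. The high set holds 3 haloperidol and 4 control arrays of cluster B, while clozapine arrays spread up to 5.89.

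Among the AMPA receptor subunits, Gria1 encodes GluA1, whose insertion into synapses accompanies long-term potentiation. The Gria1 probe set with the higher mean (1435239_at) had values of 10.05, 10.48 and 10.91 (lowest, median and highest) in clozapine, 10.07, 10.35 and 10.52 in haloperidol and 9.84, 10.44 and 10.67 in control arrays. The spans of the 3 groups lay almost on top of each other. The mean was 10.50 ± 0.27 (SD, n = 10) in clozapine, 10.33 ± 0.15 in haloperidol and 10.38 ± 0.23 in control. Clozapine minus control was 0.12 (SE 0.11, 95% confidence interval -0.10 to 0.34), with 8 of 10 clozapine arrays above the control mean. Haloperidol minus control was -0.04 (SE 0.11, -0.26 to 0.18), so for Gria1 the intervals against control exclude a change of 0.4 in either direction by this probe set.

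The second Gria1 probe set (1448972_at) gave a different picture. Its values were 7.31, 9.72 and 11.19 in clozapine, 8.05, 10.51 and 11.34 in haloperidol and 8.93, 10.29 and 11.36 in control arrays. The low end was held by clozapine 7, haloperidol 7 and control 1 of their groups, while the highest arrays of the groups were nearly equal. The mean was 9.58 ± 1.33 in clozapine, 10.29 ± 1.10 in haloperidol and 10.40 ± 0.78 in control (SD, n = 10 each). Clozapine minus control was -0.82 (SE 0.47, 95% confidence interval -1.77 to 0.13, limma p = 0.0888 before adjustment), and clozapine minus haloperidol was -0.72 (SE 0.47, -1.67 to 0.23). For the same gene, the 2 probe sets thus had clozapine minus control differences of opposite sign.

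Gria2 encodes GluA2, the subunit whose edited form makes AMPA receptors impermeable to calcium. Its first probe set (1421970_a_at) had values of 9.70, 11.47 and 12.02 in clozapine, 9.93, 11.43 and 12.02 in haloperidol and 11.17, 11.54 and 11.98 in control arrays. Apart from 1 low array in each drug group, the arrays of the 3 groups lay between 11.07 and 12.02. The mean was 11.35 ± 0.66 in clozapine, 11.34 ± 0.56 in haloperidol and 11.52 ± 0.28 in control (SD, n = 10 each). Differences from control were -0.16 (SE 0.23) for clozapine and -0.17 (SE 0.23) for haloperidol, and clozapine minus haloperidol was 0.011 (SE 0.23).

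The second Gria2 probe set (1453098_at) had values of 8.30, 8.41 and 8.73 in clozapine, 7.83, 8.09 and 9.32 in haloperidol and 7.82, 8.28 and 8.76 in control arrays. The clozapine arrays filled a narrow band inside the range of the other groups. All 10 clozapine arrays lay above the control mean and above the haloperidol mean. Clozapine minus control was 0.17 (SE 0.15, 95% confidence interval -0.13 to 0.48) and clozapine minus haloperidol was 0.20 (SE 0.15, -0.10 to 0.51). In the test without the 3 outlying arrays, clozapine minus haloperidol was 0.28 (SE 0.12, unadjusted p = 0.0259, adjusted p = 0.236 by limma).

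Gria3 encodes GluA3, which pairs with GluA2 in AMPA receptors of cortical pyramidal cells. Its single probe set (1420563_at) had values of 6.88, 8.06 and 9.02 in clozapine, 6.15, 8.88 and 9.18 in haloperidol and 7.52, 9.18 and 9.61 in control arrays. Of the clozapine arrays 7 of 10 lay below the control mean, and the lowest array of all was haloperidol 2. The mean was 8.08 ± 0.78 in clozapine, 8.33 ± 1.03 in haloperidol and 8.84 ± 0.80 in control (SD, n = 10 each). Clozapine minus control was -0.76 (SE 0.38, 95% confidence interval -1.52 to 0.01), which had the smallest p of the tested subunits in this comparison (limma p = 0.0531 before adjustment, adjusted p = 1.0). Haloperidol minus control was -0.51 (SE 0.38, -1.28 to 0.25) and clozapine minus haloperidol -0.24 (SE 0.38, -1.01 to 0.52). The means ran from control through haloperidol to clozapine, and neighbours in this order did not differ beyond the spread between arrays.

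Gria4 encodes GluA4, which is found mainly in interneurons and in cerebellum. Its probe set (1421351_at) had a mean of 2.65 over all arrays and was not tested. Its values were 2.28, 2.35 and 2.80 in clozapine, 2.29, 2.38 and 3.28 in haloperidol and 2.28, 2.37 and 4.12 in control arrays. Most arrays of every group sat near 2.3, and only 8 arrays, those of cluster B, lay above 2.5.

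Among the NMDA receptor subunits, Grin2b encodes GluN2B, which gives slowly closing receptors and predominates early in forebrain development. Its first probe set (1422223_at) had values of 2.65, 3.82 and 5.89 in clozapine, 2.78, 3.98 and 7.52 in haloperidol and 2.39, 3.72 and 7.65 in control arrays. In haloperidol and control the arrays fell into a low set up to 4.35 and 3.73 and a high set above 7, with none between, while clozapine arrays spread up to 5.89. The mean was 4.15 ± 1.27 in clozapine, 4.65 ± 1.85 in haloperidol and 4.97 ± 2.10 in control (SD, n = 10 each), and no control array lay between 3.73 and 7.12. Over all arrays this probe set averaged 4.59 and so passed the filter of 4, although the median of each group lay below 4. Cluster B averaged 7.07, beside 3.72 in A and 4.22 in C, so the filter was passed through the high arrays of B. Clozapine minus control was -0.82 (SE 0.75, 95% confidence interval -2.36 to 0.72) and haloperidol minus control -0.32 (SE 0.75, -1.85 to 1.22). A fall of 1 therefore lies within both intervals, and a rise of 1 lies within that for haloperidol but outside that for clozapine. The second Grin2b probe set (1431700_at) had values of 2.44, 2.47 and 2.56 in clozapine, 2.37, 2.45 and 2.56 in haloperidol and 2.37, 2.45 and 2.62 in control arrays and was not tested.

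Grin2c encodes GluN2C, best known from cerebellar granule cells and, in forebrain, from astrocytes and thalamus. Its probe set (1449245_at) had values of 6.73, 7.07 and 7.53 in clozapine, 6.50, 6.83 and 8.18 in haloperidol and 6.20, 6.86 and 7.23 in control arrays. Clozapine had the highest median, and 9 of its 10 arrays lay above the control mean. The mean was 7.12 ± 0.29 in clozapine, 6.95 ± 0.51 in haloperidol and 6.81 ± 0.29 in control (SD, n = 10 each). Clozapine minus control was 0.31 (SE 0.17, 95% confidence interval -0.04 to 0.65, limma p = 0.0791 before adjustment). The astrocyte markers, all 10 of which had a mean of at least 4, had a summed level of 13.46 to 13.70 in clozapine, 13.47 to 13.78 in haloperidol and 13.34 to 13.76 in control arrays on the log2 scale, and their part in the Grin2c values was not tested.

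Grin2a encodes GluN2A, the fast-closing subunit that dominates in adult cortex, and Grin2d encodes GluN2D, which occurs in interneurons and brainstem. The Grin2a probe set (1421616_at) had a mean of 2.40 over all arrays, with values of 2.21, 2.24 and 2.64 in clozapine, 2.20, 2.25 and 2.45 in haloperidol and 2.17, 2.40 and 3.74 in control arrays. The Grin2d probe set (1421393_at) had values of 0.52, 0.55 and 0.60 in clozapine, 0.50, 0.53 and 0.61 in haloperidol and 0.49, 0.53 and 0.58 in control arrays. Neither reached the filter of 4. With no filter on low values, over 22626 probe sets, Grin2a had unadjusted limma p-values of 0.024 for clozapine against control (difference -0.32, SE 0.14) and 0.0214 for haloperidol against control (-0.33, SE 0.14), and Gria4 one of 0.0223 for clozapine against control (-0.57, SE 0.23). Their adjusted p-values were 0.641, 0.926 and 0.641. An unadjusted p under 0.05 was thus found for 2 of 11 subunit probe sets for clozapine against control, where 1074 of 22626 probe sets had one. For haloperidol against control it was 1 of 11, where 510 of 22626 had one. Grin2a was highest in control 9 at 3.74 and control 2 at 3.22, beside a control median of 2.40. The 4 highest Gria4 values of the control group, 3.80 to 4.12, were those of control arrays 7 to 10, all of cluster B.

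Over the 7 tested probe sets the median difference was -0.16 for clozapine against control, with 3 of 7 positive. Over all 12944 probe sets it was 0.023, with 55.3% positive. For haloperidol against control the subunits' median was -0.10 with 1 of 7 positive, against -0.03 and 43.5% for all. For clozapine against haloperidol it was 0.011 with 4 of 7 positive, against 0.05 and 60.7% for all. The 2 comparisons with control share the control arrays.

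**Figure D2:**
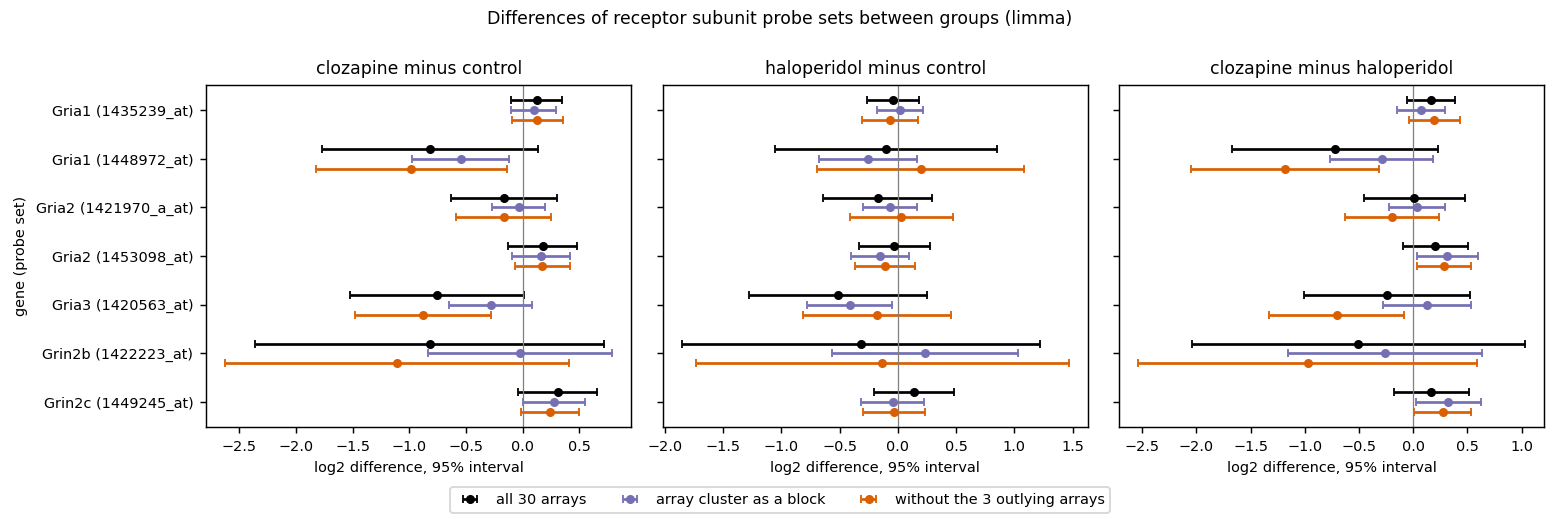
Log2 difference with its 95% confidence interval for each tested receptor subunit probe set and comparison, from limma with all 30 arrays (black), with array cluster as a block (purple) and without haloperidol 2, haloperidol 7 and control 1 (orange). With all arrays every interval includes 0, and the intervals of Grin2b and of the second Gria1 probe set are the widest.

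The subunits varied between single arrays to very different degrees. Over all 30 arrays the SD of the log2 value was 1.75 for the first Grin2b probe set, 1.12 for the second Gria1 probe set and 0.91 for Gria3. It was 0.51 and 0.33 for the 2 Gria2 probe sets, 0.39 for Grin2c and 0.22 for the first Gria1 probe set, beside a median of 0.43 over all tested probe sets. The Grin2b SD was larger than that of 99.2% of tested probe sets, and that of the first Gria1 probe set was larger than that of 5.92%.

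These differences between arrays followed the array clusters more than the drugs. Of the sum of squares of the first Grin2b probe set over the arrays of the 3 clusters, 79.2% lay between clusters, against 3.88% between groups over all arrays. The corresponding shares were 74.4% and 11.0% for the second Gria1 probe set and 73.5% and 12.5% for Gria3, with medians over all tested probe sets of 40.8% and 4.74%. Grin2c stood at the other end, with 2.0% between clusters and 11.0% between groups. The clusters were built from the same arrays, so these shares are a description.

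By cluster, the first Grin2b probe set had values of 5.50 to 7.65 in B, 2.96 to 4.35 in A and 2.93 to 5.89 in C. Gria4 had 2.80 to 4.12 in B and at most 2.46 in A and 2.38 in C. The 7 arrays with the highest Grin2b values all belonged to B, while clozapine 1, the lowest of B at 5.50, lay below the highest C arrays. For Gria4 all 8 arrays of B lay above every array of A and C. The second Gria1 probe set was highest in A, with a median of 11.19 against 10.20 in B and 9.73 in C, and the first was lowest there, with 10.25 in A, 10.48 in B and 10.52 in C. Gria3 had medians of 8.88 in A, 9.31 in B and 7.55 in C, the cluster with the wider 3′ minus 5′ difference, and the part of RNA quality in this was not tested by cluster.

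**Figure D3:**
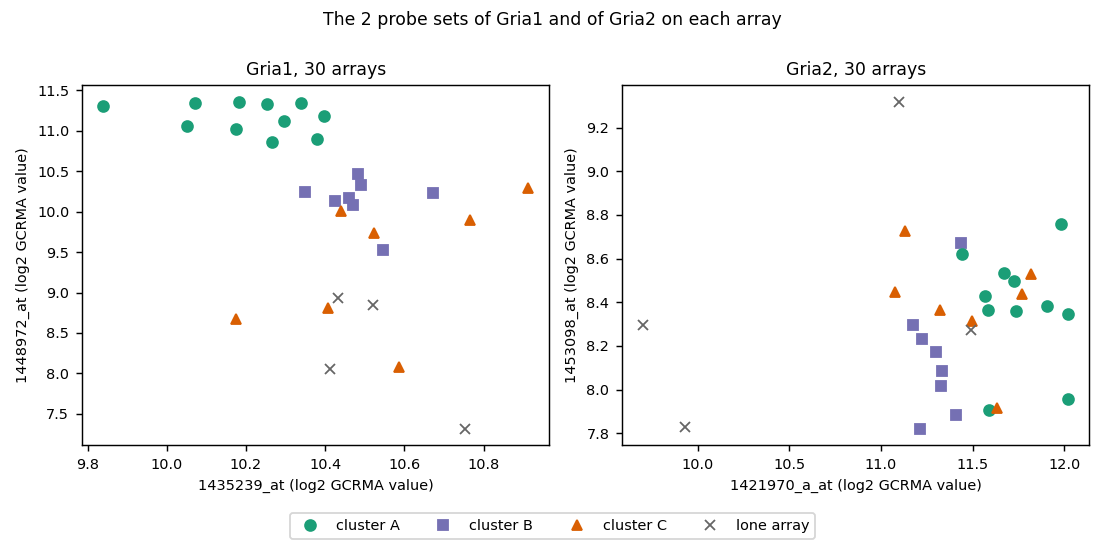
Log2 GCRMA values of the 2 probe sets of Gria1 (left) and the 2 tested probe sets of Gria2 (right) on each of the 30 arrays, with marker and colour giving the array cluster. Cluster A lies high on the second Gria1 probe set and low on the first, and within clusters the sign of r differs for both genes.

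No correlation between the 2 probe sets of a gene passed a test within clusters. For Gria1, Pearson's r was -0.30 in A (n = 11, Spearman's rho -0.15), -0.18 in B (n = 8, rho -0.02) and 0.55 in C (n = 7, rho 0.50), and without the 2 arrays farthest from the median of the first probe set it was -0.33, -0.57 and 0.13. For Gria2 it was -0.10 in A (rho -0.29), 0.24 in B (rho 0.05) and -0.33 in C (rho -0.18), and 0.30, -0.19 and 0.22 without such arrays. Permutation tests, exact in B and C, gave unadjusted p from 0.213 to 0.755 for r and Benjamini-Hochberg adjusted p of at least 0.701 over the 6 relations, and for rho adjusted p of 0.977 in each. The values of both genes are therefore given per probe set.

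Because array cluster and drug were not balanced, the differences were also computed with cluster as a block, a fit in which the 4 arrays outside the clusters carry no weight. For clozapine against control, Gria3 was then at -0.28 (SE 0.18), the first Grin2b probe set at -0.024 (SE 0.39), the second Gria1 probe set at -0.55 (SE 0.21) and Grin2c at 0.28 (SE 0.13). The Gria3 and Grin2b differences were thus smaller than over all arrays, while that of Grin2c was nearly unchanged in size. At an unadjusted p under 0.05 the block gave 2 of 7 subunit probe sets, against 6.93% of all, namely the second Gria1 probe set (p = 0.0144, adjusted p = 0.681) and Grin2c (p = 0.0456, adjusted p = 0.713). Within clusters, Grin2c differed by 0.26 in A (3 clozapine and 3 control arrays), -0.14 in B (1 and 4) and 0.49 in C (5 and 2), and Gria3 by -0.01 in A, -0.69 in B and -0.35 in C.

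With cluster as a block, 1 subunit probe set had an unadjusted p under 0.05 for haloperidol against control, where 4.24% of all did. It was Gria3, at -0.41 (SE 0.18, p = 0.0282, adjusted p = 1.0), with differences of -0.28 in A (5 haloperidol and 3 control arrays) and -0.48 in B (3 and 4). For clozapine against haloperidol there were 2 of 7, against 5.89% of all: the second Gria2 probe set at 0.31 (SE 0.14, adjusted p = 0.816) and Grin2c at 0.32 (SE 0.15, adjusted p = 0.817). Cluster C held 0 haloperidol arrays, so within clusters these differences can be seen only in A and B. Grin2c differed by 0.40 in A (3 clozapine and 5 haloperidol arrays) and -0.13 in B (1 and 3). The second Gria2 probe set differed by 0.17 in A and 0.65 in B.

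Leaving out haloperidol 2, haloperidol 7 and control 1 narrowed the spread of several subunits. No clozapine array was left out, although clozapine 7 also lay outside the clusters. In that order the 3 arrays had 8.84, 8.05 and 8.93 for the second Gria1 probe set and 6.15, 6.83 and 7.72 for Gria3. All lay below their group means, and clozapine 7 had 7.31 and 7.44. Dropping these low values raises the haloperidol and control means and so lowers the clozapine differences of these probe sets. For clozapine against control Gria3 was then at -0.88 (SE 0.29, p = 0.0058, adjusted p = 0.304) and the second Gria1 probe set at -0.98 (SE 0.41, p = 0.0236, adjusted p = 0.369), 2 of 7 at an unadjusted p under 0.05 where 11.4% of all probe sets were. For clozapine against haloperidol there were 4 of 7, against 17.8% of all, with Gria3 at -0.70 (SE 0.30), the second Gria1 probe set at -1.18 (SE 0.42), the second Gria2 probe set at 0.28 and Grin2c at 0.27 (SE 0.13). Haloperidol against control had 0 of 7, against 2.9% of all, with Gria3 at -0.18 (SE 0.31). With the 3′ minus 5′ difference as a covariate over all arrays, Gria3 stood at -0.85 (SE 0.31, p = 0.00946, adjusted p = 0.464) and the second Gria1 probe set at -0.94 (SE 0.39, p = 0.0222, adjusted p = 0.539) for clozapine against control, 2 of 7 at an unadjusted p under 0.05 where 8.26% of all probe sets were. For haloperidol against control this covariate gave 1 of 7, against 3.14% of all, with Gria3 at -0.70 (SE 0.31, p = 0.0312, adjusted p = 0.984), and for clozapine against haloperidol 0 of 7, against 3.91% of all. None of these differences passed the correction over all probe sets.

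The titles number the arrays of each group from 1 to 10, and what these numbers stand for is not given in the sources used here. Of the sum of squares over all arrays, 51.3% lay between numbers 1 to 6 and 7 to 10 for the first Grin2b probe set. The share was 27.5% for the second Gria1 and 22.9% for the first Gria2 probe set, with a median of 10.3% over all tested probe sets. It was 6.92% for the first Gria1 probe set, 0.39% for Gria3, 0.29% for the second Gria2 probe set and 0.04% for Grin2c. The first Grin2b probe set had a median of 7.07 on the 12 arrays numbered 7 to 10 and of 3.67 on the 18 numbered 1 to 6. On numbers 7 to 10 its values were 2.65 to 5.89 in clozapine (n = 4), 2.78 to 7.52 in haloperidol and 7.12 to 7.65 in control arrays. The clozapine arrays there lay below all 4 controls, and haloperidol 7 was the only haloperidol array below 7.

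**Figure D4:**
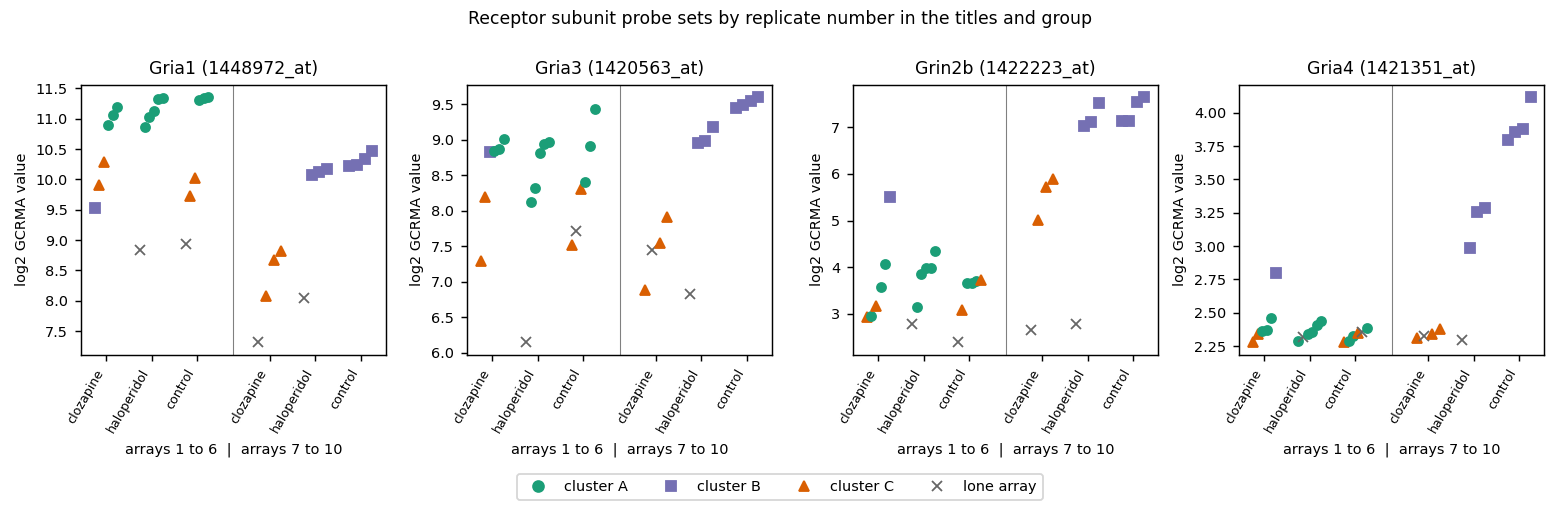
Log2 GCRMA values of the second Gria1 probe set, Gria3, the first Grin2b probe set and Gria4 on arrays numbered 1 to 6 (left of each grey line, n = 6 per group) and 7 to 10 (right, n = 4 per group), sorted within clozapine, haloperidol and control, with marker and colour giving the array cluster. On numbers 7 to 10 all 4 control arrays belong to cluster B and lie above all 4 clozapine arrays in these panels, which show the 4 of 11 subunit probe sets with that order, and on numbers 1 to 6 the groups overlap. The controls numbered 7 to 10 also lie above all 4 haloperidol arrays in the Gria1, Gria3 and Gria4 panels.

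On numbers 7 to 10 Gria3 had values of 6.88 to 7.92 in clozapine, 6.83 to 9.18 in haloperidol and 9.45 to 9.61 in control arrays. The second Gria1 probe set had 7.31 to 8.81 in clozapine, 8.05 to 10.17 in haloperidol and 10.23 to 10.46 in control arrays. The 4 clozapine and 4 control arrays did not overlap for either. Nor did the haloperidol and control arrays, with haloperidol minus control at -1.03 for Gria3 and -0.71 for the second Gria1 probe set. The same held for Gria4, at -0.96, and the share of all probe sets with this separation was not computed. Clozapine and control did not overlap on these arrays for 6 of the 11 subunit probe sets, against 43.6% of all 22626, so this was common across the array. Clozapine lay below control for 4 of them, the second Gria1 probe set, Gria3, Gria4 and the first Grin2b probe set, against 10.1% of all. It lay above control for the other 2, the second Gria2 probe set (difference 0.35) and Grin2d (0.033), against 33.5% of all. In a limma fit of the 12 arrays numbered 7 to 10, added after the data were seen, clozapine against control called 2 of 7 subunit probe sets, against 8.2% of all: Gria3 at -2.07 (SE 0.44, adjusted p = 0.0204) and the second Gria1 probe set at -2.09 (SE 0.46, adjusted p = 0.023). In the fit of the 18 arrays numbered 1 to 6, also added after the data were seen, the same differences were 0.12 (SE 0.45) and 0.028 (SE 0.48), Grin2b stood at 0.32 (SE 0.39), and 0 of 7 were called, as were 0% of all.

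The change of the clozapine minus control difference between the number ranges was tested as an interaction over all 30 arrays. It was -2.20 for Gria3 (SE 0.68, limma adjusted p = 0.0886), -2.12 for the second Gria1 probe set (SE 0.73, adjusted p = 0.114) and -2.86 for the first Grin2b probe set (SE 0.96, adjusted p = 0.109). None of the 7 subunit probe sets passed, where 185 of 12944 (1.43%) did. On numbers 7 to 10 the 4 control arrays all belonged to cluster B, while 3 of the clozapine arrays belonged to C and clozapine 7 to no cluster, so cluster and drug cannot be told apart there. The 3′ minus 5′ difference on these arrays was 0.82 to 1.24 in clozapine and 0.50 to 0.64 in control.

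Weighting each array by its estimated precision moved Gria3 and Grin2b in the same direction as the arrays numbered 7 to 10. With limma's array weights, Gria3 was at -1.26 (SE 0.26, adjusted p = 0.00487) and the first Grin2b probe set at -2.27 (SE 0.67, adjusted p = 0.0275) for clozapine against control, 2 of 7 called against 13.4% of all probe sets. The 4 largest of the 30 weights, 3.44 to 4.86, were those of control arrays 7 to 10, the next largest being 1.69. With the weights and cluster as a block together, a fit added after the data were seen, 0 of 7 were called for clozapine against control, and 0% of all.

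Genes with the pattern most like each subunit were found by Pearson's r of the deviations from the group means over 30 arrays. Each subunit was compared with 11908 or 11909 tested probe sets of other named genes. Gria3 was followed most closely by Washc4 (r = 0.95), Xpr1 (0.93) and Tmem30a (0.92), and the first Grin2b probe set by Gnaq (0.95), Arnt2 (0.93) and Cds2 (0.93). Over the 26 arrays of clusters A to C, with cluster means removed, these r were 0.74, 0.71 and 0.71 for Gria3 and 0.78, 0.59 and 0.75 for Grin2b. For the first Gria2 probe set the nearest were Cdc37l1 (0.92), the sodium channel gene Scn2a (0.89) and Sbno1 (0.88), and their r within clusters was 0.44, 0.36 and 0.28. The first Gria1 probe set was nearest to Tollip (0.84), Ankrd40 and Trappc12 (0.83 each), and Grin2c to Ergic3 (0.83), Bckdha and Mapk8ip2 (0.82 each). The arrays share clusters and RNA quality, so these r describe the arrays.

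The subunits themselves were alike in fewer pairs. Over 30 arrays the second Gria1 probe set had r = 0.74 with the first Gria2 probe set and 0.67 with Gria3, and 0.46 and 0.50 with cluster means removed over 26 arrays. Gria3 had r = 0.55 with the first Grin2b probe set, and 0.09 with cluster means removed. Other pairs had negative r. The 2 Gria1 probe sets had r = -0.45, and 0.29 with cluster means removed. The first Grin2b probe set had r = -0.09 with the first Gria2 and -0.03 with the second Gria1 probe set. With cluster means removed these were -0.65 and -0.51. The second set of r differs from the first both in the cluster means removed and in the 4 arrays left out.

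Of 84 other genes of the glutamate receptor pathway, 54 had a probe set, 44 were tested and 0 were called in each comparison. They comprised 2 kainate receptor subunits, 1 delta receptor subunit, 1 metabotropic receptor, 10 auxiliary subunits of AMPA and kainate receptors and their handling proteins, 20 postsynaptic scaffold and trafficking genes, and 10 kinase, phosphatase and editing genes. Their median difference was -0.02 for clozapine against control, -0.10 for haloperidol against control and 0.06 for clozapine against haloperidol. At an unadjusted p under 0.05 there was 1 of 44 for clozapine against control and 1 of 44 for clozapine against haloperidol, or 2.27% each, and 0 of 44 for haloperidol against control, all below the share among all probe sets.

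The gene with such a p for clozapine against control was Shank3, which encodes a scaffold of the postsynaptic density. It averaged 10.01 ± 0.32 in clozapine and 9.60 ± 0.59 in control arrays (SD, n = 10 each), a difference of 0.41 (SE 0.19, limma p = 0.0418, adjusted p = 1.0). For clozapine against haloperidol it was Src, a tyrosine kinase that acts on NMDA receptors, with 7.24 ± 0.37 in clozapine and 6.85 ± 0.47 in haloperidol arrays, a difference of 0.39 (SE 0.16, limma p = 0.0245, adjusted p = 0.965). In each case 9 of 10 clozapine arrays lay above the mean of the other group. The 10 auxiliary subunit genes, among them the transmembrane AMPA receptor regulatory protein genes Cacng2 and Cacng3, had a median difference of -0.09 for clozapine and -0.23 for haloperidol against control, with 2 of 10 positive in both. Over all tested probe sets 55.3% were positive for clozapine and 43.5% for haloperidol against control. Both comparisons use the same control arrays, and none of the 10 genes was called.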

How the data were processed

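Forebrain RNA of 30 mice was measured on 30 arrays, grouped by title. The authors deposited log2 values, and the submitters' processing notes name GCRMA. No source used here gives its version, scan dates or a genome build. GCRMA compresses values near background, which shrinks differences of weak probe sets. Precision is limited by the number of arrays.

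Of 22690 probe sets, 64 controls were left out, and a fit with limma (version 3.58.1, R version 4.3.3) covered the 12944 with a mean of at least 4 (lmFit, then eBayes, all 30 arrays, a mean per group, 27 residual degrees of freedom, two-sided, Benjamini-Hochberg adjustment, calls under 0.05). Symbols came from the platform annotation, and all 11 subunit probe sets matched RefSeq by Entrez identifier. The subunits, gene lists and tests were chosen with earlier results of these data known. All subunit probe sets are named; within a gene the one with the highest mean is called the first. Of the pathway lists, genes with an unadjusted p under 0.05 are named, and 3 genes are named as most alike per subunit gene. Correlations of probe sets used Python 3.11.15 and 100000 permutations where not exact.

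The labels do not say that replicate numbers pair mice, and the main fit did not pair arrays by them. Of 30 same-number pairs, 17 had correlated deviations above 0.1 (median 0.16, range -0.50 to 0.80). Pairs with different numbers were not counted beside them, so whether the numbers pair arrays is not known. The fit was tested on simulated data with independent values per array. These hold no array clusters or outlying arrays, so the test does not cover those features of the real arrays. The alternatives tried were other filters, quantile normalization, 2-group fits, blocks, an RNA quality covariate, array weights and left-out arrays.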

Additional observations from a re-analysis of the deposited data

Results flagged for a closer look

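In 6 of the 33 combinations of probe set and group, 1 array lay far from the other 9 by Dixon's criterion. For independent, normally distributed values chance gives this in about 1 in 20 groups. The combinations share the same arrays, and some are of probe sets below the filter, so 6 of 33 cannot be set against that rate. The first Gria2 probe set (1421970_a_at) was lowest in clozapine 7 at 9.70, with the next clozapine array at 11.07, and in haloperidol 2 at 9.93, with the next haloperidol array at 11.10. The second Gria2 probe set (1453098_at) was highest in haloperidol 7 at 9.32, with the next at 8.62. Grin2c was highest in haloperidol 2 at 8.18, with the next at 7.28. Gria4 was highest in clozapine 1 at 2.80, with the next at 2.46, and Grin2a was highest in clozapine 4 at 2.64, with the next at 2.38; both lie below the filter. Clozapine 1 is the only clozapine array of cluster B, in which all 8 arrays had Gria4 at 2.80 or more. Haloperidol 2, haloperidol 7 and clozapine 7 are arrays outside the clusters.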

How the results depend on the processing

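Of 333 subunit differences under alternatives, 289 kept their direction and their side of the threshold. Many of them could not change direction. Other filters, 2-group fits and blocks by replicate number leave the difference of group means unchanged. So does leaving out an array of a group outside the comparison. Grin2b (1422223_at) counts as kept although its clozapine minus control difference went from -0.82 to -0.024 with cluster as a block. The count of 289 is therefore no measure of robustness. The count of subunit probe sets called, 0 in each comparison, became 2 for clozapine against control with array weights and 2 on arrays numbered 7 to 10 only. Over all 12944 probe sets the 0 calls became 1731 and 1062 in these fits; for haloperidol against control they became 1 with cluster as a block and 5 with weights and cluster, and for clozapine against haloperidol 32 on numbers 7 to 10. Among differences that reversed, for clozapine against control arrays numbered 1 to 6 gave 0.12 for Gria3, 0.012 for Gria2 (1421970_a_at), 0.32 for Grin2b (1422223_at) and 0.028 for Gria1 (1448972_at); arrays numbered 7 to 10 gave -0.018 for Gria1 (1435239_at); array weights gave 0.086 and, with cluster as a block, 0.042 for Gria2 (1421970_a_at). For haloperidol against control, Gria2 (1421970_a_at) stood at 0.17 with array weights, 0.030 without the 3 outlying arrays, 0.049 on numbers 7 to 10 and 0.023 with weights and cluster as a block. Grin2b (1422223_at) stood at 0.23 with cluster as a block, 0.31 on numbers 1 to 6 and 0.14 with weights and cluster, and Gria1 (1435239_at) at 0.022 with cluster as a block. Gria1 (1448972_at) stood at 0.25 with weights, -0.26 to 0.15 with 1 outlying array left out (0.06 without haloperidol 2, 0.15 without haloperidol 7), 0.20 without the 3 arrays and 0.31 on numbers 1 to 6. Grin2c stood at -0.044 with cluster, -0.069 with weights, -0.032 without the 3 arrays, -0.12 on numbers 7 to 10 and -0.053 with weights and cluster. Gria2 (1453098_at) stood at 0.0082 with quantile normalization, 0.0069 with the RNA quality covariate, 0.0082 with weights, 0.018 without haloperidol 2 and 0.24 on numbers 7 to 10. For clozapine against haloperidol, Gria3 stood at 0.13 with cluster, 0.29 on numbers 1 to 6 and 0.097 with weights and cluster, and Grin2b (1422223_at) at 0.017 on numbers 1 to 6. Gria2 (1421970_a_at) stood at -0.0034 with quantile normalization, -0.086 with weights, -0.15 to 0.011 with 1 outlying array left out (-0.15 without haloperidol 2, -0.016 without haloperidol 7), -0.20 without the 3 arrays and -0.48 on numbers 7 to 10. No reversed value was called, and the cause was not tested. With the replicate number as a block, 0 of 7 subunit probe sets were called in each comparison. An unadjusted limma p under 0.05 was then found for 846 probe sets in place of 563 for clozapine against control. The counts were 540 in place of 298 for haloperidol against control and 642 in place of 406 for clozapine against haloperidol. Arrays correlated best with their own number in 10 of 60 cases, each a choice among the 10 arrays of another group. Depth has no equivalent here: probe sets near the GCRMA floor (Gria4, Grin2a, Grin2d and the second Grin2b probe set) have compressed differences. The first Grin2b probe set was also low outside cluster B, with a mean of 3.58 on numbers 1 to 6, so its differences there may be compressed too.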
